A study of Homo sapiens with 4 samples.

Results

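Aminoacyl-tRNA synthetases, the enzymes that join each amino acid to its tRNA, were examined for FOXK1 binding through 36 of their genes, 20 for enzymes of the cytosol and 16 for enzymes of mitochondria. The genes were taken from a fixed list by symbol, all 36 of them were found among 20037 protein-coding genes of RefSeq on GRCh38, and the highest FOXK1 peak within 1 kb of either annotated gene end was read for each. FOXK1 is a forkhead transcription factor, and the study asked where it binds in a model of kidney fibrosis, using ChIP-seq on HK-2, an immortalised human proximal tubular epithelial line grown in culture. The control group was HK-2 cells without TGF-β1, and the other group was HK-2 cells given TGF-β1, a cytokine that drives fibrosis, at 10 ng/ml for 24 h. Both groups were HK-2 cells in DMEM/F12 with serum, and the series' text mentions transfection without naming a construct. Each group had 1 FOXK1 library with 1 input library, so there was no replicate and the effect of TGF-β1 was not tested. Values of the lists compare 2 libraries, not the conditions.

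Every tRNA must carry its own amino acid before the ribosome can use it, and the synthetase sets that match. Cytosol and mitochondria translate separately, so most amino acids have a cytosolic enzyme (names ending in 1) and a mitochondrial enzyme (names ending in 2), both from nuclear genes, while GARS1 and KARS1 each encode both forms. Several cytosolic enzymes sit in the multisynthetase complex, and many cytosolic synthetase genes are induced through the transcription factor ATF4 when amino acids run short, by way of an element bound by C/EBP and ATF factors (CARE).

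Promoter sequence is shown for the 5 genes with the highest peaks among those whose highest peak covered the start in at least 1 list. The highest KARS1 peak covered its stretch in the control list only and the highest GARS1 peak in the TGF-β1 list only, and the other lists had lower peaks of 8 and 12 there. Each run is the 250 bases before the annotated start from RefSeq (GRCh38.p14), 5′ to 3′ in the direction of the gene, and capitals mark matches to the motifs searched further on. In the KARS1 stretch the capitals are an ETS motif, and in the IARS1 stretch an E-box followed by a CARE. The EPRS1, GARS1 and LARS2 stretches held no match to any motif searched.
KARS1, chr16:75647666-75647915, minus strand: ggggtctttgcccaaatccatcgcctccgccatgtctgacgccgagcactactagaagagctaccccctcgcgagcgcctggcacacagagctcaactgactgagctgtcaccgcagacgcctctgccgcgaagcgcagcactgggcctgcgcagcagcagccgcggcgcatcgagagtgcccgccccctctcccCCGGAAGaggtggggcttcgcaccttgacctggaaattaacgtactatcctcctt
GARS1, chr7:30594485-30594734, plus strand: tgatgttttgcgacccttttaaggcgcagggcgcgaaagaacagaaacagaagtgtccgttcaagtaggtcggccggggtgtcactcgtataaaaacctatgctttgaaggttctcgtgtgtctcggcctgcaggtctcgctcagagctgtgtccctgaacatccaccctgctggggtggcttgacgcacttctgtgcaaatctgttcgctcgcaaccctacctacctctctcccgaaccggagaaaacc
IARS1, chr9:92293698-92293947, minus strand: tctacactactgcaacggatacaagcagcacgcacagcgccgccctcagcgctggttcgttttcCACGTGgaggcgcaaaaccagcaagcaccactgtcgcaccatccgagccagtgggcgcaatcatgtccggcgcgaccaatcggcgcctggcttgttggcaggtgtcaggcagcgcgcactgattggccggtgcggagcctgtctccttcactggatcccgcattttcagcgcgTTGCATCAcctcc
EPRS1, chr1:220046506-220046755, minus strand: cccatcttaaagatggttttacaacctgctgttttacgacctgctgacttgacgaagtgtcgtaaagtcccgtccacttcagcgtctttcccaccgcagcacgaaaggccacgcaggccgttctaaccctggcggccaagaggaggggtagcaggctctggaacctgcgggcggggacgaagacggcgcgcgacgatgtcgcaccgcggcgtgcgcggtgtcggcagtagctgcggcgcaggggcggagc
LARS2, chr3:45388326-45388575, plus strand: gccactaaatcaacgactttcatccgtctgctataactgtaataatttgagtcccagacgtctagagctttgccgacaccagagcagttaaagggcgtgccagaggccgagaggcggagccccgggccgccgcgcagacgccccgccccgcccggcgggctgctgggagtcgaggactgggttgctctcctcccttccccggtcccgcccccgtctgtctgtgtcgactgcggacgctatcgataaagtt

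HARS1 and HARS2, the cytosolic and the mitochondrial histidyl enzyme, are transcribed away from each other from starts with 84 bp between them, and a single peak in each list covered both starts. The stretch between the starts is shown whole because both genes share it, with its 2 ETS motifs in capitals.
HARS1 to HARS2, chr5:140691371-140691454, plus strand: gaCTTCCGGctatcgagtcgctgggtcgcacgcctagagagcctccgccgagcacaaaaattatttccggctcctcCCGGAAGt

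The CARE was found at 5 promoters, all of cytosolic enzymes, and the 30 bases around each are shown with the element in capitals. It reads TTGCATCA, the reverse complement, in all but NARS1.
AARS1, chr16:70289675-70289704, minus strand: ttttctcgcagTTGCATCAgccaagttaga
CARS1, chr11:3057407-3057436, minus strand: cggggcggcggTTGCATCAgattctaggaa
IARS1, chr9:92293692-92293721, minus strand: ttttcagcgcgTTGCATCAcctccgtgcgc
MARS1, chr12:57488053-57488082, plus strand: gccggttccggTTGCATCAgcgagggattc
NARS1, chr18:57621804-57621833, minus strand: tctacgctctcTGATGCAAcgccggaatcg

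The deposited value of a peak is its pileup height, the authors' whole number of reads stacked at one place, of at least 3 in both lists. The control list held 381700 peaks and the TGF-β1 list 439136 on the 24 assembled chromosomes, with a median height of 5 in each. Sequencing depth is unknown and height moves with it, so heights of the lists set side by side do not measure a change. A peak was called strong when it was at least as high as the 10000th highest peak of its own list, which was a height of 17 in the control list and of 15 in the TGF-β1 list. The lists do not measure expression, so the labelled cell type was not checked here against markers.

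FOXK1 peaks lay at the ends of nearly every synthetase gene. In the control list 35 of 36 had a gene-end peak of any height, beside 75.3% of all protein-coding genes, and in the TGF-β1 list the same 35 had one, beside 74.6%. All 35 were thus occupied in both lists, against 64.0% of all genes. The exception in both was FARS2, the mitochondrial phenylalanyl enzyme. A strong peak was found at 12 genes in the control list (17.0% of all protein-coding genes had one) and at 16 in the TGF-β1 list (15.7% of all genes). For 8 genes the peak was strong in both lists, beside 11.9% of all genes, and for 20 it was strong in at least 1 list, beside 20.8%. The median height over the 36 genes was 12.5 in each list, and over all protein-coding genes it was 8 and 7, with genes that had no peak counted as 0.

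**Figure D1:**
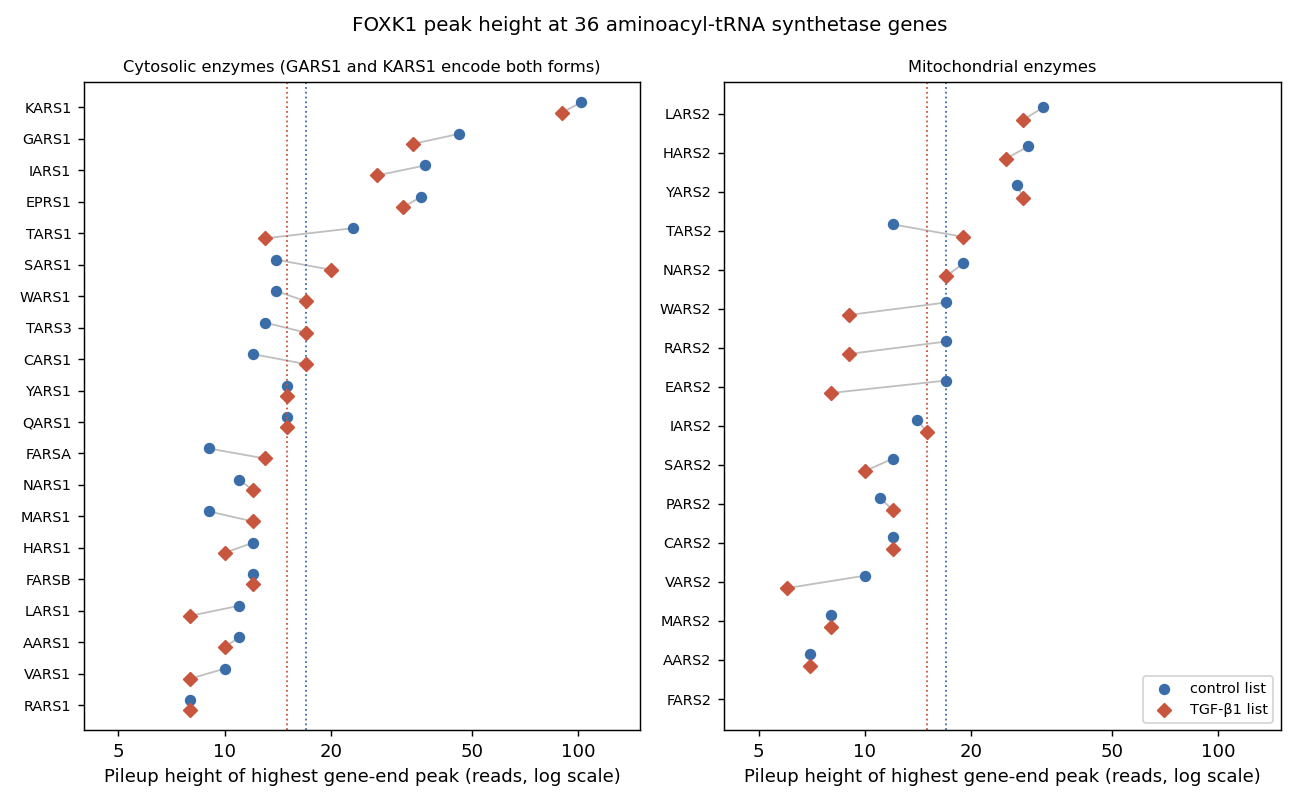
Pileup height of the highest gene-end peak (reads, log scale) for each synthetase gene in the control list (circles) and the TGF-β1 list (diamonds), with dotted lines at the heights from which peaks were called strong, 17 and 15. KARS1 stands highest at 102 and 90, most genes lie near 12, and FARS2 has no point because it had no gene-end peak.

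The highest peak belonged to KARS1, whose gene encodes the cytosolic and the mitochondrial lysyl enzyme. Its height was 102 in the control list, rank 69 of all protein-coding genes, and 90 in the TGF-β1 list, rank 74. KARS1 starts 108 bp from TERF2IP, a telomere-associated protein gene that runs the other way. The control peak, chr16:75647388-75649446, covered both starts, while the TGF-β1 peak, chr16:75648370-75648955, lay 705 bp upstream of the KARS1 start and 597 bp inside TERF2IP. At the KARS1 start itself the TGF-β1 list had a separate peak of height 8. The peak cannot be assigned to KARS1 or to TERF2IP alone.

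GARS1, the gene for both forms of the glycyl enzyme, came next with 46 and 34 (control and TGF-β1, as in all pairs of heights below). The control peak, chr7:30595568-30596388, began 833 bp inside the gene, and a lower control peak of 12 covered the start. In the TGF-β1 list a single peak of 2202 bp, chr7:30594487-30596688, covered both places. Neither GARS1 peak was shared with another protein-coding gene.

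Among the 7 listed genes of the multisynthetase complex, peaks were strong at 3 in both lists (42.9%, beside 11.9% of all protein-coding genes). These were KARS1, IARS1 and EPRS1, and the median height over the 7 was 15 in each list. IARS1, the isoleucyl enzyme, had 37 and 27 over its start (control peak chr9:92293363-92294566), and a second peak further inside the gene of 9 and 19, which began 594 and 530 bp after the start. It also had a strong peak deep inside the gene, 22 in each list, at chr9:92242095-92242766 in the control list. EPRS1, the fused glutamyl and prolyl enzyme, had 36 and 32 over nearly the same stretch, from chr1:220045391-220046972 in the control list to chr1:220045471-220046942 in the TGF-β1 list. The other 4 genes of the complex were lower. QARS1, the glutaminyl enzyme, had 15 over chr3:49104138-49105104 and 15 over chr3:49104611-49105257, equal heights of which the second alone was strong, since the limit was lower in that list. LARS1, for leucine, had 11 and 8, MARS1, for methionine, 9 and 12, and RARS1, for arginine, 8 and 8. Beyond the window of QARS1 there was a higher peak of 44 and 56, at 1067 and 1047 bp past the other end of the gene and at a gene end of QRICH1.

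The 13 cytosolic genes outside the complex had median heights of 12 and 13. GARS1 was the 1 gene among them with a strong peak in both lists (7.69%, beside 11.9% of all protein-coding genes). Strong peaks were at 2 of the 13 in the control list (15.4%, beside 17.0%). In the TGF-β1 list they were at 6 (46.2%, beside 15.7%). TARS1, the threonyl enzyme, was strong in the control list only, with 23 over chr5:33439959-33442281, and had 13 in the TGF-β1 list at chr5:33439879-33441401. Strong in the TGF-β1 list only were 5 genes. SARS1, for serine, had 14 and 20, with the TGF-β1 peak at chr1:109214155-109214796, inside the control peak of chr1:109213747-109215218. CARS1, for cysteine, had 12 and 17 (chr11:3056425-3057673 and chr11:3057042-3057959). WARS1, for tryptophan, had 14 and 17 (chr14:100375024-100377479 and chr14:100375522-100376818). YARS1, for tyrosine, had 15 and 15 (chr1:32816874-32817719 and chr1:32815975-32818721). TARS3, a second cytosolic threonyl gene, had 13 at chr15:101723219-101724467 and 17 at chr15:101651647-101653623, at opposite ends of the gene. The 6 genes strong in neither list lay between 8 and 13. They were AARS1 for alanine (11 and 10), HARS1 for histidine (12 and 10), NARS1 for asparagine (11 and 12), VARS1 for valine (10 and 8), and FARSA (9 and 13) and FARSB (12 and 12), both subunits of the phenylalanyl enzyme.

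Peaks were strong at 4 mitochondrial enzymes in both lists. LARS2, the leucyl enzyme, had 32 and 28 over its start, at chr3:45387976-45388885 and chr3:45388267-45389287. YARS2, the tyrosyl enzyme, had 27 over chr12:32754881-32756585 in the control list. In the TGF-β1 list it had 28 over a narrower stretch inside the gene, chr12:32754916-32755491, and a second peak of 10 at the start. NARS2, the asparaginyl enzyme, had 19 and 17 over nearly the same bases, chr11:78574612-78575035 and chr11:78574627-78575016. HARS2, the histidyl enzyme, had 29 and 25, at chr5:140700008-140700770 and chr5:140699990-140700959. That HARS2 site lay 703 and 685 bp past the far end of the gene and covered the start of ZMAT2, so it cannot be assigned to HARS2, whose own start had the 12 and 10 shared with HARS1.

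Strong in the control list only were 3 mitochondrial genes, each at the limit of 17. EARS2, for glutamate, had 17 and 8 (chr16:23557329-23558942 and chr16:23557154-23557955). RARS2, for arginine, had 17 and 9 (chr6:87589295-87590334 and chr6:87589350-87590006). WARS2, for tryptophan, had 17 and 9 (chr1:119139392-119141453 and chr1:119140608-119141865). Strong in the TGF-β1 list only were TARS2, for threonine, with 12 and 19 (chr1:150487077-150487484 and chr1:150487101-150487492), and IARS2, for isoleucine, with 14 and 15 (chr1:220093740-220095107 and chr1:220094508-220095024). The peaks of these 5 genes overlapped between the lists, so none was a site of 1 list. The remaining mitochondrial genes with a peak lay between 6 and 12. They were CARS2 for cysteine (12 and 12), SARS2 for serine (12 and 10), PARS2 for proline (11 and 12), VARS2 for valine (10 and 6), MARS2 for methionine (8 and 8) and AARS2 for alanine (7 and 7).

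Neither the cytosolic nor the mitochondrial set stood above the other throughout. With GARS1 and KARS1 counted as cytosolic, 5 of 20 cytosolic and 7 of 16 mitochondrial genes were strong in the control list. Of all protein-coding genes, 17.0% were strong there. In the TGF-β1 list it was 10 of 20 and 6 of 16, beside 15.7%, and in both lists 4 of each set, beside 11.9%. Both sets thus stood above all protein-coding genes in each of these counts. Exactly at the limit of their list were EARS2, RARS2 and WARS2 (17, control) and QARS1, YARS1 and IARS2 (15, TGF-β1). Median heights were 12.5 for cytosolic and 13 for mitochondrial genes in the control list, and 14 and 11 in the TGF-β1 list. Cytosolic heights ran from 8 to 102 and from 8 to 90, and mitochondrial heights, FARS2 aside, from 7 to 32 and from 6 to 28, so the sets overlapped. These shares were not tested, since genes are not replicates of a condition. Among the 12 genes strong in 1 list only, the control list held 1 cytosolic and 3 mitochondrial genes and the TGF-β1 list 6 and 2. Among all protein-coding genes, 5.10% were strong in the control list alone and 3.77% in the TGF-β1 list alone. The larger share was thus on the other side from that of the synthetase genes, 4 and 8 of 36. The 4 and 8 depended on the limits of 17 and 15. From height 20 in both lists, 8 synthetase genes were strong in each list and 7 in both. From the 5000th highest peak it was 8 (control) and 7 (TGF-β1), with 7 in both. From the 20000th it was 18 and 23, with 15 in both.

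Pairs of enzymes for the same amino acid went both ways. Of 13 such pairs, the cytosolic gene had the higher peak in both lists in 4 (AARS1, IARS1, MARS1 and SARS1) and the mitochondrial gene in 5 (HARS2, through its peak at ZMAT2, LARS2, NARS2, RARS2 and YARS2). IARS1 stood over IARS2 with 37 against 14 and 27 against 15, and LARS2 over LARS1 with 32 against 11 and 28 against 8. Other margins were small, with MARS1 9 against MARS2 8 in the control list and RARS2 9 against RARS1 8 in the TGF-β1 list. At their annotated starts HARS1 and HARS2 were equal, with 12 and 10 each. The threonyl and tryptophanyl pairs changed order between the lists, and the cysteinyl and valyl pairs were equal in the control list. The genes were also grouped by function and by structure. The 12 cytosolic genes known as part of the amino acid response had median heights of 14 and 16, and the other 8 cytosolic genes 12 and 12.5. Strong peaks were at 4 and 7 of the 12 (33.3% and 58.3%) and at 1 and 3 of the 8 (12.5% and 37.5%), a difference that was not tested. Of all protein-coding genes, 17.0% and 15.7% had a strong peak, so the 12.5%, which is 1 gene, was below that share. The 19 enzymes of class I had median heights of 14 and 12, and the 17 of class II, the other structural family of synthetases, 12 and 13. Strong peaks were at 7 and 9 of class I (36.8% and 47.4%) and 5 and 7 of class II (29.4% and 41.2%), beside the same shares of all genes.

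Peaks sat at gene starts. Strand was available for 30 of the 36 genes (not for AARS2, LARS1, TARS3, VARS1, VARS2 and YARS1), and 29 of these had a gene-end peak. The highest was at the annotated start in 28 of 29 in each list, and HARS2, with its peak at ZMAT2, was the exception. Among all such genes the share was 80.4% (control) and 80.0% (TGF-β1). It was 91.0% and 93.8% for MRPL and MRPS genes of the mitochondrial ribosome, and 81.2% and 82.1% for RPL and RPS genes of the cytosolic ribosome. The peak covered the start position itself in 25 of the 29 synthetase genes without TGF-β1 and 23 with it, beside 49.8% and 44.8% of all such genes. For MRPL and MRPS genes it was 56 of 67 and 46 of 64, so the synthetase genes were not alone in this. The RefSeq promoter window, 250 bp before to 50 bp after the start, was overlapped by a peak in 30 of 30 genes in the control list, beside 52.3% of all promoters, and in 28 of 30 in the TGF-β1 list, beside 49.5%. The promoters of SARS1 and IARS2 were those without a TGF-β1 peak, and their strong TGF-β1 peaks began 262 and 376 bp inside the gene.

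**Figure D2:**
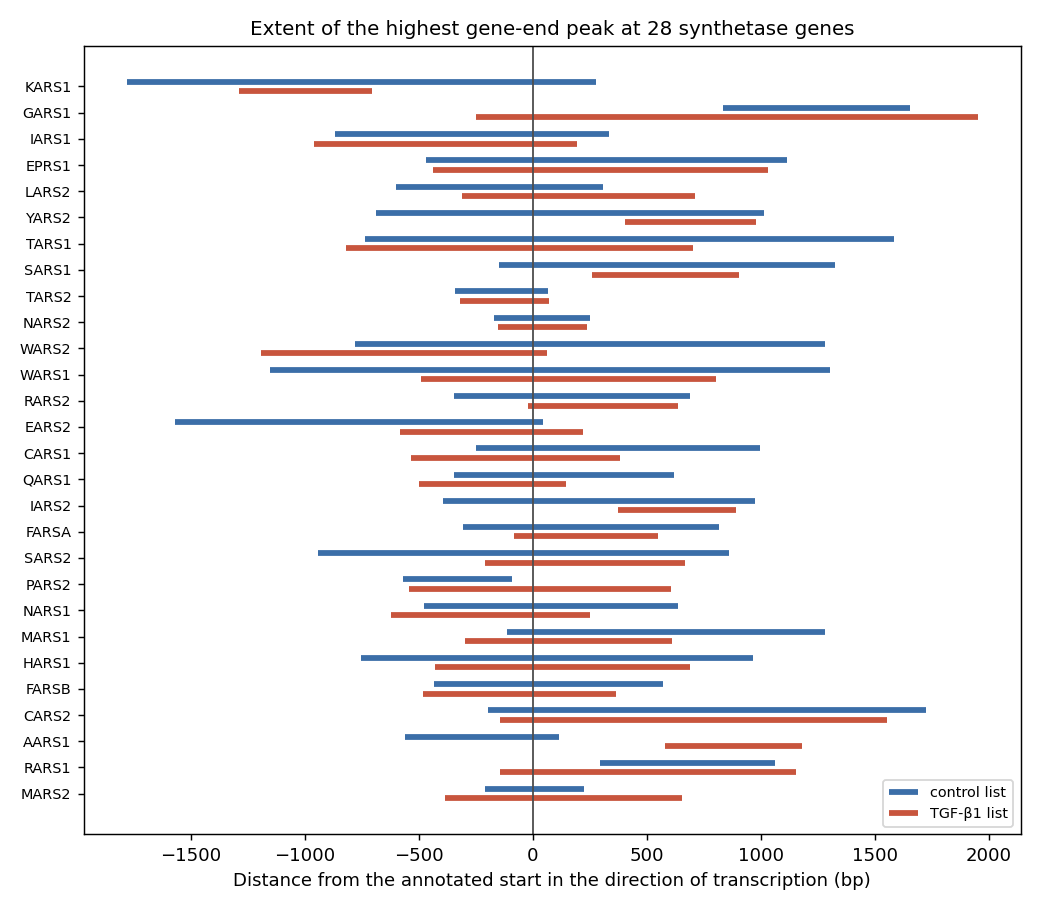
Extent of the highest gene-end peak at 28 synthetase genes with a known strand, as distance in bp from the annotated start (vertical line) in the direction of transcription, in the control list (blue) and the TGF-β1 list (red), ordered by height from top to bottom. Most bars cross the start, while the KARS1 bar of the TGF-β1 list runs from -1290 to -705 bp, and HARS2, whose peak lay at the far end, is left out.

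The missing peak at FARS2 depended on which start was read. FARS2 spans 521650 bp, and RefSeq lists promoters at 11073 and 11579 bp inside its outer end. A strong peak lay there in both lists, of height 21 at chr6:5260519-5262240 and of height 20 at chr6:5260198-5261888. For CARS2 the starts listed 7007 and 7406 bp inside the gene had peaks of 17 in the control list and of 4 and 6 in the TGF-β1 list. The outer CARS2 peak of 12 and 12 covered the start of its neighbour ING1. These inner starts were looked at after the FARS2 value was seen.

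Some genes had a peak more than 1 kb inside that was higher than those at their ends. This was so for 7 of 36 genes in the control list (AARS2, CARS2, FARS2, MARS1, RARS1, RARS2 and VARS1) and for 2 in the TGF-β1 list (FARS2 and WARS2), beside 40.0% and 40.6% of all protein-coding genes, which include genes with no gene-end peak. The highest inner peaks were at FARS2, with 23 in the control list at chr6:5287297-5288082, and at IARS1 and RARS2. IARS1 had 22 in each list, as given above, and RARS2 had 22 and 9. WARS2 had an inner peak of 15 and 17, and VARS1 of 16 in the control list and at most 5 in the TGF-β1 list.

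Many peaks were shared with a neighbouring gene. The highest peak also lay at the end of another protein-coding gene for 13 of 35 genes in each list, and of all genes with a peak 26.1% and 25.8% shared theirs. Several of these synthetase genes start back to back with another gene. RARS2 starts 148 bp from ORC3, an origin recognition subunit, WARS1 158 bp from WDR25, SARS2 181 bp from MRPS12, a mitochondrial ribosomal protein, AARS1 261 bp from DDX19B, an RNA helicase, and EARS2 352 bp from UBFD1. In the control list the peak covered both starts in each of these pairs. The highest peaks of synthetase genes were wide, with a median of 1115 bp in the control list and 907 bp in the TGF-β1 list, against 669 and 618 bp over all genes with a peak.

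The lists mostly marked the same sites. Of the 35 genes with a peak in both lists, the highest peaks overlapped for 32, and among all such genes 72.5% overlapped. The other 3 differed only in which of several sites was highest. AARS1 had 11 and 8 at or just before the start, and 6 and 10 inside the gene. VARS1 had 10 and 6 at its lower-coordinate end, where VWA7 starts, and 8 and 8 at the other. TARS3 had 13 and 10 at its higher-coordinate end, and 12 and 17 at the lower, where TM2D3 starts. For all 35 genes the highest peak of each list was overlapped by some peak of the other list.

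Promoter motifs were counted on both strands in the same promoter window (for FARS2 and CARS2 at their outermost listed start) for the 30 genes with a listed promoter and, beside them, for all 15842 protein-coding promoters. The forkhead motif TGTTTAC was in 0 of 30 synthetase promoters, in 2.67% of all promoters, and in 8.76% of the 1472 promoters under strong peaks of both lists. The shorter forkhead motif TGTTTG was in 3 (CARS2, TARS2 and WARS2), or 10.0%, beside 12.3% of all promoters and 13.2% of those under strong peaks. With only 30 promoters, 0 is near the 2.67% of all. TGTTTAC was in 2.29% of promoters under no peak, but most promoters under strong peaks lacked it too. A window without these letters thus does not show that FOXK1 was not bound there.

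The CARE, TGATGCAA, was in 5 of 30 synthetase promoters, or 16.7%, beside 0.675% of all promoters and 0.543% of those under strong peaks of both lists. All 5 were among the 10 amino acid response genes with a listed promoter, a group known from background for this kind of control, and 0 of the other 20 had it. Counting the first transcribed base as 0, its first base lay at -187 in AARS1, -13 in IARS1, -4 in MARS1, -2 in CARS1 and 14 in NARS1. Peak heights at these genes were not alike, since IARS1 was strong in both lists, CARS1 in the TGF-β1 list only, and AARS1, MARS1 and NARS1 in neither.

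The ETS motif CCGGAAG was in 15 of 30 synthetase promoters, beside 14.2% of all promoters and 22.8% of those under strong peaks of both lists. It was in 9 cytosolic and 6 mitochondrial promoters, of 16 and 14, and HARS1 and HARS2 count the same 2 matches of their shared stretch. The E-box CACGTG was in 4 (CARS2, EARS2, IARS1 and MARS2), or 13.3%, beside 8.82% of all promoters and 235 of the 1472 under strong peaks of both lists, a larger share. The CRE TGACGTCA was in 0, beside 2.56% and 4.14% of these sets, and the NRF1 motif, GCGCA followed by its reverse complement, in MARS2 alone, or 3.33%, beside 1.77% and 3.06%. Base composition was much the same, with a median GC content of 62.0% in synthetase promoters and 62.7% in all, and a median of 23 and 22 CpG sites.

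**Figure D3:**
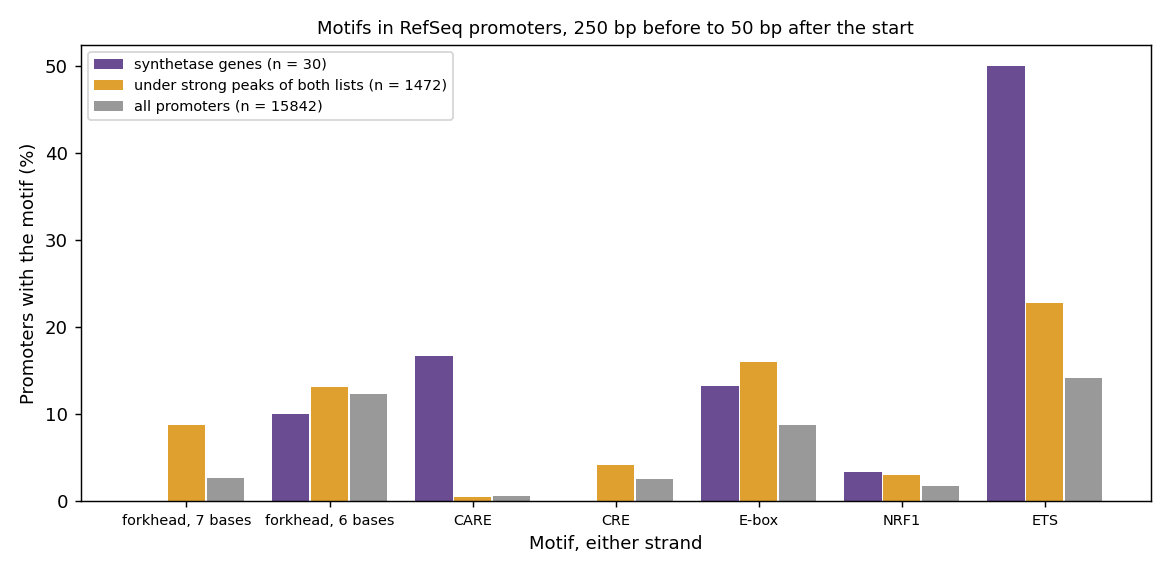
Share of promoters (%) that hold each motif on either strand, in the 30 synthetase promoters, in the 1472 promoters under strong peaks of both lists and in all 15842 promoters. For the synthetase genes the ETS bar (15 of 30) and the CARE bar (16.7%) stand above both other sets, and their bar for the forkhead motif of 7 bases is at 0.

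Genes that work beside the synthetases also carried peaks at their ends, in both lists for all 20 of them, with median heights of 13 and 11.5, and 7 were strong in the control list, 3 in the TGF-β1 list and 2 in both. All protein-coding genes gave 17.0%, 15.7% and 11.9%, so the shares for the TGF-β1 list (15.0%) and for both lists (10.0%) were near the background. Of the multisynthetase scaffold proteins, AIMP1 had 17 and 14 over a stretch shared with TBCK, strong without TGF-β1 only. AIMP2 had 15 and 9, and EEF1E1 10 and 14. Among elongation factors that bring charged tRNA to the ribosome, EEF1A1 was strong in both lists with 22 and 16, and EEF1G (25 and 14) and EEF1B2 (21 and 12), subunits of its exchange factor, in the control list only. The EEF1G peak lay inside the gene, 973 and 934 bp before its far end, and the EEF1B2 peak covered the start of NDUFS1 too.

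GCN1, which helps the kinase GCN2 sense uncharged tRNA, had 17 and 22 at its start, strong in both lists, at a peak that also lay near the far end of RPLP0. The GCN2 gene, EIF2AK4, had 6 and 8, and ATF4 had 11 and 7. SEPSECS, of selenocysteinyl-tRNA synthesis, had 21 and 14, and QRSL1, whose peak also lay near the start of RTN4IP1 and which encodes a subunit of the mitochondrial glutamyl-tRNA amidotransferase, had 19 and 8, so both were strong in the control list only. AARSD1, an editing protein for mischarged tRNA, had 14 and 17 and was strong in the TGF-β1 list only.

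Ribosomal protein genes were the sets most like the synthetase genes in function. They were matched by the prefix of their symbols. The RPL and RPS set thus also holds RPS19BP1 and the joined entries RPS10-NUDT3, RPL17-C18orf32 and RPL36A-HNRNPH2, listed beside RPS10, RPL17 and RPL36A. Of 91 RPL and RPS genes, 88 and 86 had a gene-end peak, 31 and 24 a strong one, and the median heights were 13 and 11. Of 77 MRPL and MRPS genes of the mitochondrial ribosome, it was 74 and 71, 27 and 21, and again 13 and 11. Strong peaks in the control list were thus at 33.3% of synthetase, 34.1% of RPL and RPS and 35.1% of MRPL and MRPS genes. In the TGF-β1 list they were at 44.4%, 26.4% and 27.3%. The difference was not tested, and 3 of the 16 strong synthetase genes of that list, QARS1, YARS1 and IARS2, stood exactly at its limit of 15.

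**Figure D4:**
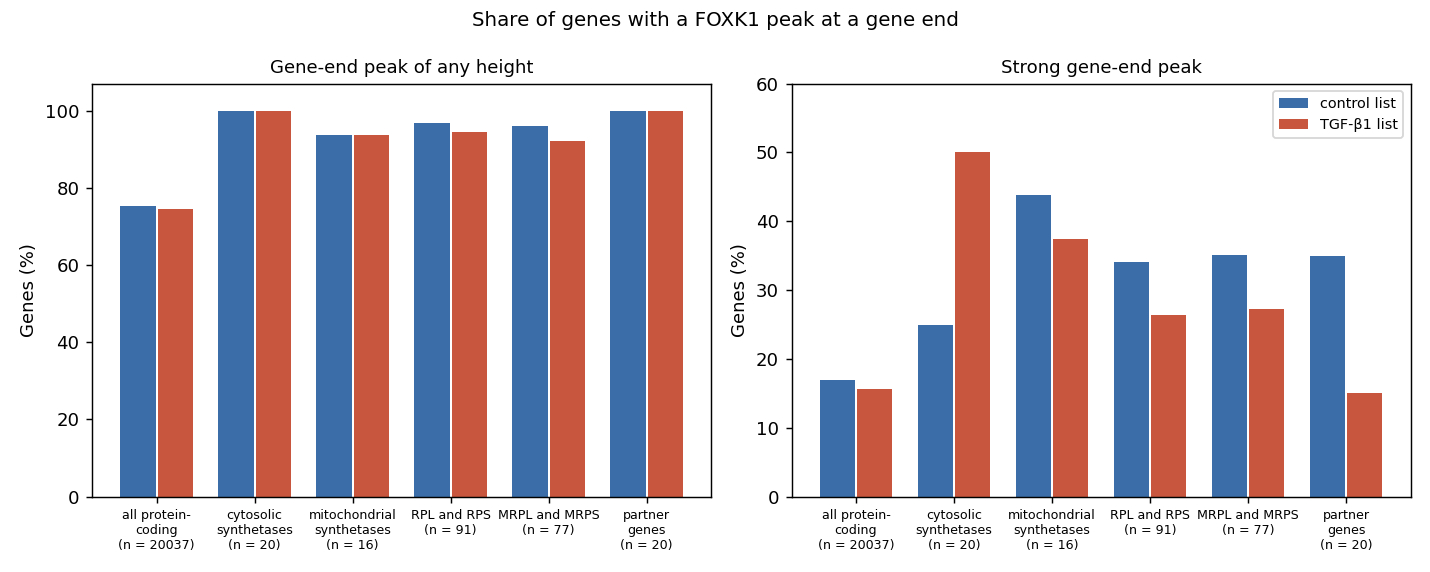
Share of genes (%) with a gene-end peak of any height (left) and with a strong one (right) in the control list (blue) and the TGF-β1 list (red), for all protein-coding genes, cytosolic and mitochondrial synthetases, ribosomal protein genes and partner genes, with the number of genes under each. All synthetase and ribosomal sets stand above all protein-coding genes in both panels, and cytosolic synthetases (10 of 20) have the tallest bar among the strong peaks of the TGF-β1 list.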

How the data were processed

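The deposited files were 1 peak list per condition, each from 1 FOXK1 library against its input. The signal in them was the authors' pileup height per peak, in whole numbers with no stated scaling between libraries; the files name no column, and it was read as pileup from its form. The build was hg38, and the tools named were MACS2 2.1.1.20160309 and bcl2fastq 2.17, per the submitters' processing notes. Chromatin was cut with MNase and sonicated, per the labels' protocols. The aligner, filters, peak threshold and read numbers are not given in the sources used here, so depth is unknown and no interval on height could be given. Starts were read as counting from 0. Peaks were assigned with Python 3.11.15, numpy 2.4.6 and pandas 2.3.3 to the annotated ends of RefSeq genes on GRCh38.p14 (hg38 coordinates), with 1 bp as minimum overlap, and checked on planted peaks. Starts, strand and promoter sequence came from the RefSeq promoter table, which holds 15842 of the genes; for motifs, 1 promoter per gene was used, the outermost listed.

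The synthetase genes and the lists were chosen with earlier results of these data known. Genes strong in at least 1 list are given with positions, others by height, and partner genes if strong in at least 1 list, beside which AIMP2, EEF1E1, EIF2AK4 and ATF4 are named for their role. Of up to 8 promoter sequences that the rule allows, 5 are shown. Alternatives covered the window, the gene end, the height limits, the grouping of GARS1 and KARS1, and the overlap minimum.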

Additional observations from a re-analysis of the deposited data

How the results depend on the processing

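The 21 results were recomputed under 111 alternatives in all. Of these values, 87 stayed within 1.5 times (medians: within 1 unit of height) and 24 moved further. The label of a changed direction fell on 0 values, but only the median differences could receive it, since counts have no direction. The number of genes with a gene-end peak stayed within 1.5 times of 35 in each list under every window and height minimum tried. Strong peaks depended on the limit. From the 5000th highest peak, strong genes in the TGF-β1 list fell from 16 to 7 (cytosolic 4, mitochondrial 3). In the control list they fell from 12 to 8, and the mitochondrial ones among them from 7 to 3. From height 20 in both lists, the TGF-β1 list had 8 (5 and 3), and the control list 8, 3 of them mitochondrial. From the 20000th highest, the control list had 18 strong genes, 10 of them cytosolic, and the TGF-β1 list 23. Both lists then had 15 strong genes in common, 10 of them cytosolic. With a window of 500 bp, 5 genes were strong in both lists, 2 of them cytosolic. With GARS1 and KARS1 left out or counted as mitochondrial, the control list had 3 strong cytosolic genes, and 2 were strong in both lists. With both counted as mitochondrial, 6 mitochondrial genes were strong in both lists. At the annotated gene start only, for 30 genes, 4 cytosolic and 3 mitochondrial genes were strong in both lists. The median height of cytosolic minus mitochondrial genes, -0.5 in the control list, was 0.0 with a window of 500 bp and 0.0 at the annotated gene start only. It was -2.5 with a 2 kb window, -3.5 with both genes counted as mitochondrial, and -4.0 at any RefSeq start, an alternative chosen after seeing the data. In the TGF-β1 list it was 3.0, and 1.0 with both genes counted as mitochondrial. In the 250 bases before the start alone, TGTTTG was in 1, the CARE in 2 and the E-box in 2 synthetase promoters. No paired analysis was possible because each group held 1 library, and for the same reason no library could be left out.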
